A study of Oryza sativa Japonica Group with 38 samples.

Results

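Among the authors' rice loci with XLOC identifiers, 49 had 1 exon and were highest in the poly(A)+ RNA of untreated seedlings. They were chosen from the XLOC list by measured values. A locus had to have 1 exon, no gene of the same interval on the other strand, and no 2-fold excess of poly(A)- over poly(A)+ RNA in roots. Its log2(FPKM + 1) in untreated poly(A)+ RNA then had to lie at least 1 above each of the cold, drought, heat, high light, high salt and root values. FPKM stands for fragments scaled to exon length and library size, and a difference of 1 on the log2(FPKM + 1) scale is called 2-fold here. Of the 3509 XLOC genes, 3219 had 1 exon, 119 of these were left out for a mirrored partner and 93 for the root excess, so 3007 could be taken and 49 were (1.63%). Both lists of the series together held 7231 genes.

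Long noncoding RNAs are transcripts that do not code for protein. Many plant long noncoding RNAs are made by RNA polymerase II and carry a poly(A) tail, and their levels often differ between organs and under stress. A locus without introns gives no splice junctions, so its strand rests on the library protocol, and it can be hard to tell from a part of a longer transcript next to it. The files pair these loci with no gene names or functions, so they are called by their identifiers.

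Japonica rice seedlings of 2 weeks, grown at 28 °C in 12 h of light and at 22 °C in 12 h of dark, were left untreated or given 1 of 5 stresses. These were cold (4 °C), drought, heat (50 °C), high light (50000 lux) and high salt (300 mM NaCl). Untreated leaves, panicles (headed young panicle) and roots were sequenced beside the seedlings, and the labels give them the same age and growth conditions. Each of the 9 conditions gave poly(A)+, poly(A)-, nuclear and small RNA. The labels give each group 1 library, except 2 for the poly(A)+ and the poly(A)- RNA of drought, which have 1 column each in the files. The small RNA column headed leaf comes from a library whose title names seedlings, so its tissue is uncertain. The untreated and stressed groups were whole seedlings, so fewer cells of a type and less RNA per cell cannot be told apart.

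Depth, recovered from the FPKM steps, was 24.6 to 105 M reads (M, reads in units of 1e6) for the undisputed long RNA columns and 39.7 to 85.8 M for small RNA. The untreated poly(A)+ library had 74.5 M reads, and the untreated nuclear library was the shallowest with 24.6 M. At that depth 2392 of 2396 nuclear values of up to 200 reads (99.8%) were whole reads, and at a step 2 times smaller 3 of the 2396 would be odd, as in the other nuclear libraries (2 to 5), so the larger step was kept. In 4 of the 36 columns of each list (poly(A)+ RNA of leaves, and the 3 long RNA fractions of panicles) the depths of the lists differed under the same heading. These disputed columns were kept apart, and the next library or gap of a locus is counted below among the 7 poly(A)+ libraries of the rule. Every group has 1 column, so the intervals below are exact 95% Poisson intervals that cover counting error only. Stress comparisons share the untreated library of their fraction.

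In untreated poly(A)+ RNA the 49 loci spanned 1.03 to 120 FPKM, with a median of 6.88 and quartiles of 2.15 and 14.98. Their median was 0.529 FPKM in cold, 0.604 in drought, 0.409 in heat, 0.384 in high light, 0.161 in high salt and 0.278 in roots. All 49 were at 1 FPKM or more without stress, against 21 in cold, 16 in drought, 16 in heat, 20 in high light, 10 in high salt and 17 in roots. Of the other 2958 unspliced XLOC loci, 56.4% reached that level untreated, 50.0% in cold, 34.6% in drought and 57.9% in heat. High light had 48.6% of them, high salt 30.1% and roots 52.7%. In drought the share of the 49 (32.7%) was thus near that of the others. The rule put the untreated library on top for the 49 loci, so their order is a description. Reads behind the untreated values ran from 18 to 4197 with a median of 164. For all 49 loci the untreated interval lay above those of the other 6 libraries. The rule chose the loci by these same values, so that too is a description and not a test.

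The summed FPKM of the 49 loci was 738 in untreated seedlings, 171 in cold, 87.99 in drought, 126 in heat, 105 in high light, 37.8 in high salt and 90.8 in roots. The 3 highest loci held 33.6% of the untreated sum. Among the 3007 loci the rule could take, the share at least 2-fold higher without stress was 11% against cold, 31% against drought, 10.9% against heat, 12.1% against high light, 37.1% against high salt and 12.8% against roots. The whole poly(A)+ libraries also lay apart: over all genes at 1 FPKM, the median log2 difference of untreated seedlings was 1.02 from drought and 1.17 from high salt, and between -0.08 and 0.19 from the other 4. The median log2 difference of the 49 loci was 1.86 from drought and 2.58 from high salt, and 1.87, 1.96, 1.84 and 1.61 from cold, heat, high light and roots. With these library medians taken off, 17 of the 49 still met the rule, XLOC_042506, XLOC_053058, XLOC_074068, XLOC_018092 and XLOC_092633 among them.

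**Figure D1:**
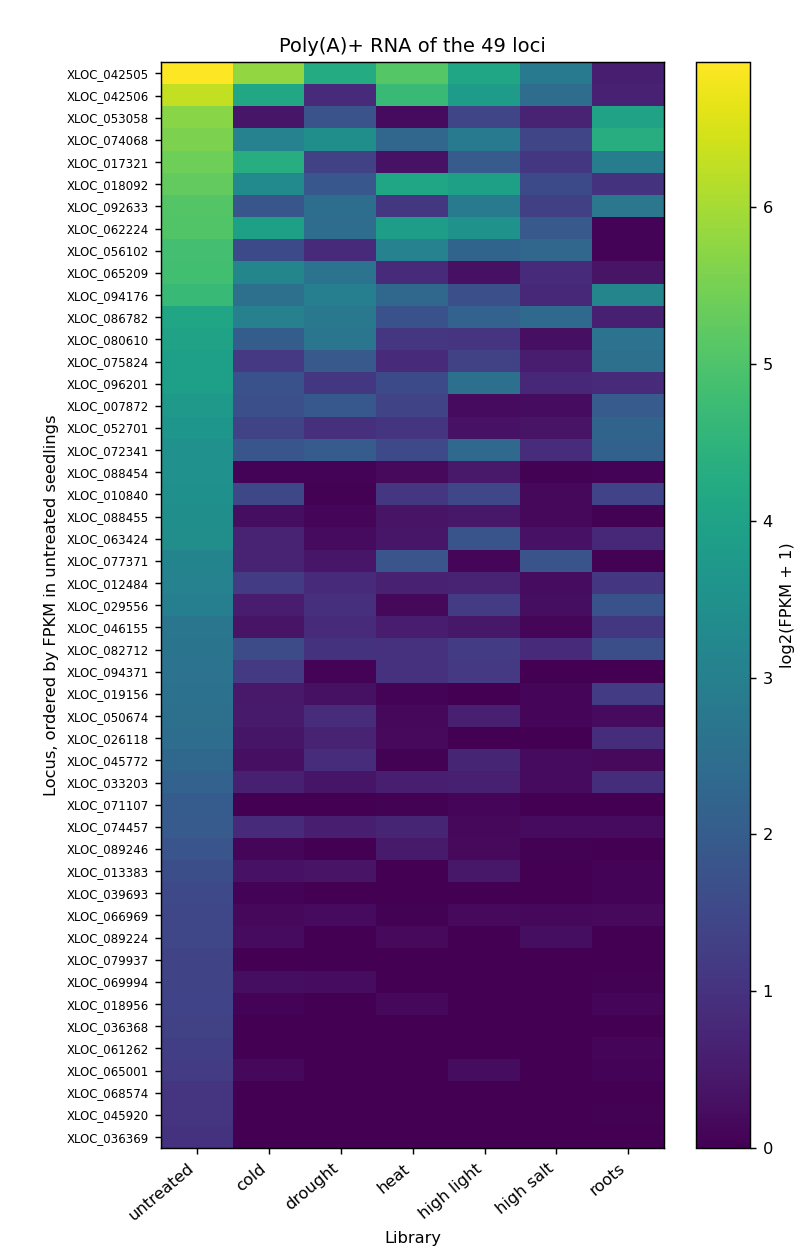
Poly(A)+ RNA of the 49 loci (rows, ordered by untreated FPKM) in the untreated, the 5 stressed and the root libraries (columns), coloured by log2(FPKM + 1). The untreated column is the brightest in every row by the rule, and the columns that come next differ between loci.

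**Figure D2:**
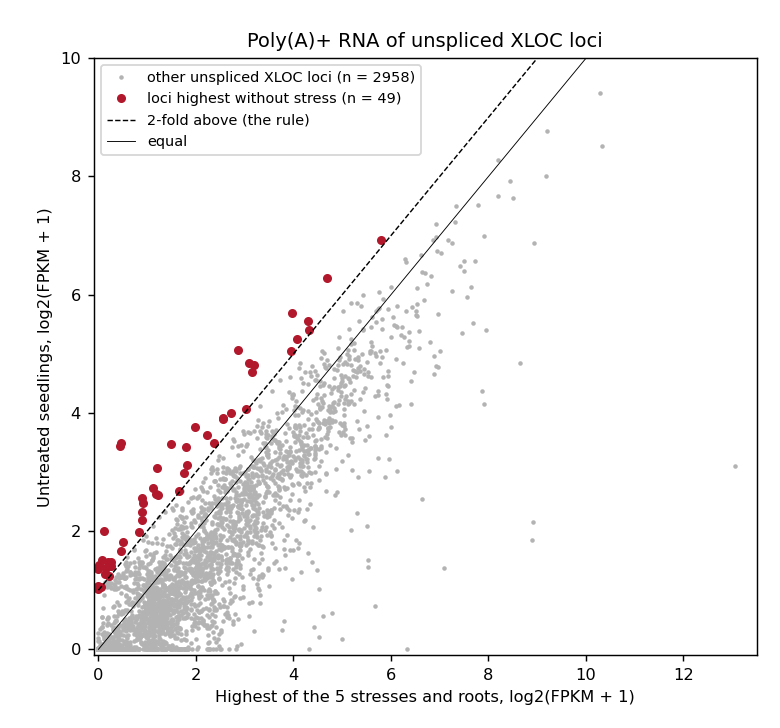
Untreated seedlings (vertical axis) against the highest of the 5 stresses and roots (horizontal axis), both as log2(FPKM + 1) in poly(A)+ RNA, for the 49 loci in red and the other 2958 unspliced XLOC loci in grey. The dashed line is the 2-fold threshold that chose the loci.

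XLOC_042505, 243 nt on the plus strand of chromosome 3 (6625052 to 6625295, build IRGSP-1.0), was the highest of the loci. It stood at 120 FPKM untreated (2177 reads, 95% interval 115 to 125), 54.8 in cold, 33.5 in heat, 18.2 in drought, 16.2 in high light, 6.19 in high salt and 0.508 in roots. Its RNA thus remained well detected in all 5 stresses and lay near the bottom in roots. XLOC_053058, 1112 nt on the plus strand of chromosome 4 (13465756 to 13466868), had another order. It stood at 50.7 FPKM untreated (4197 reads), 14.7 in roots, 2.43 in drought, 1.71 in high light, 0.582 in high salt, 0.342 in cold and 0.141 in heat. Roots came next to the untreated seedlings, and heat, with 12 reads, was lowest.

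Roots were the next library also for XLOC_074068 on the minus strand of chromosome 6 (16509383 to 16509671), at 18.8 FPKM against 45.8 untreated. Its stressed libraries lay between 1.74 FPKM in high salt and 9.96 in drought. XLOC_017321 on the minus strand of chromosome 10 (22608354 to 22608700) had 41.1 FPKM untreated and 18.9 in cold, but 6.56 in roots, 2.97 in high light, 1.52 in drought, 1.17 in high salt and 0.264 in heat. Cold was thus the only stress above 3 FPKM at this locus.

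A further set of high loci was nearly silent in roots. XLOC_062224 (chromosome 5, plus strand, 16421424 to 16422194) gave 32.03 FPKM untreated, 14.4 in cold, 13.6 in heat, 10.5 in high light, 4.59 in drought, 2.81 in high salt and 0.0493 in roots. XLOC_056102 (chromosome 4, minus strand, 1125755 to 1126739) gave 27.9 FPKM untreated, 7.46 in heat, 3.83 in high salt, 3.72 in high light, 1.92 in cold, 0.759 in drought and 0.0386 in roots. Both had heat among their upper stresses and their lowest value in roots. XLOC_065209 (chromosome 5, minus strand, 8959535 to 8959774) gave 27.1 FPKM untreated and 0.278 in roots, and was lowest in high light at 0.248, where the other loci of this set were at 3.72 or more.

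XLOC_018092 (chromosome 11, plus strand, 2343642 to 2344120) stood at 37.2 FPKM untreated, 15.7 in heat, 14.2 in high light, 8.82 in cold, 2.66 in drought, 1.93 in high salt and 1.01 in roots. XLOC_092633 (chromosome 9, plus strand, 13154815 to 13155151) stood at 32.6 FPKM untreated and between 1.16 in heat and 6.24 in high light elsewhere. Of the 10 highest loci, XLOC_092633 was therefore the one with the widest gap to its next library, 2.22 on the log2 scale.

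Across the 49 loci, the library next to the untreated one was roots for 15, cold for 11, high light for 9, heat for 6, drought for 4 and high salt for 1. The other 3 loci had no read in any of the 6 libraries. At 1 FPKM or more, 6 loci were seen in all 5 stresses, 24 in none, 3 in all 5 stresses and roots, and 22 in none of the 6 libraries. The loci thus ran from broadly transcribed ones to ones seen, among the 7 libraries of the rule, only in the untreated one at this level. Some of the latter, XLOC_033203 at 3.99 FPKM among them, passed that level in a disputed poly(A)+ tissue column. With roots left out of the rule, 98 loci would have been chosen, and with high salt left out, the same 49.

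The widest gaps belonged to a neighbouring pair on the minus strand of chromosome 8, XLOC_088454 (8063738 to 8064614) and XLOC_088455 (8064674 to 8066238), 60 nt apart. XLOC_088454 had 10.3 FPKM untreated (669 reads), 0.384 in high light, 0.119 in heat, 0.0542 in roots, 0.0445 in cold, 0.0388 in drought and 0.0369 in high salt. XLOC_088455 had 9.84 FPKM untreated (1146 reads), 0.354 in high light, 0.292 in heat, 0.193 in cold, 0.114 in high salt, 0.0869 in drought and 0.0364 in roots. High light, the next library of the rule for both, was 26.7 and 27.8 times lower than untreated. A disputed column, poly(A)+ RNA of panicles or of leaves by heading, was closer, with 2.37 and 2.30 FPKM. The ratio of XLOC_088454 to XLOC_088455 was 1.04 untreated and 1.08 in high light. It was 0.408 in heat (8 against 35 reads), 0.446 in drought (2 against 8), 0.325 in high salt (2 against 11), 0.230 in cold (4 against 31) and 1.49 in roots (5 against 6), so few reads stand behind it there. Whether the pair is 1 transcript broken at the gap was not tested.

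XLOC_042505 and XLOC_042506 (6625798 to 6626070) lay 503 nt apart on the plus strand of chromosome 3. XLOC_042506 stood at 76.7 FPKM untreated, 24.9 in heat, 16.4 in cold, 13.01 in high light, 4.52 in high salt, 0.812 in drought and 0.558 in roots. The ratio of XLOC_042505 to XLOC_042506 was 1.57 untreated, 1.35 in heat, 1.24 in high light, 1.37 in high salt and 0.909 in roots (13 against 16 reads). It was 3.35 in cold and 22.5 in drought, where XLOC_042505 had 261 reads and XLOC_042506 had 13. The pair therefore kept a similar ratio in the untreated, heat, high light and high salt libraries and parted in cold and drought. Few reads stand behind the ratio in roots.

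XLOC_045772 and XLOC_050674 on chromosome 3 overlapped on opposite strands by 522 nt. Both start at 32056979 and end at 32057501 and 32057502, so the rule against mirrored genes did not remove them. XLOC_045772 had 4.01 FPKM (156 reads) and XLOC_050674 had 4.90 FPKM (191 reads) in untreated seedlings, and both had 26 reads in drought. The sources used here do not say how reads were shared between strands, so the values of this pair are uncertain. XLOC_089246 (chromosome 8, 16253801 to 16254981, 2.51 FPKM untreated) lies within the span of the spliced XLOC_089245 on the same strand (5 exons, 5.96 FPKM untreated), and XLOC_013383 (chromosome 10, 2.15 FPKM untreated) lies opposite XLOC_016101 (0.798 FPKM), so these values are uncertain too.

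**Figure D3:**
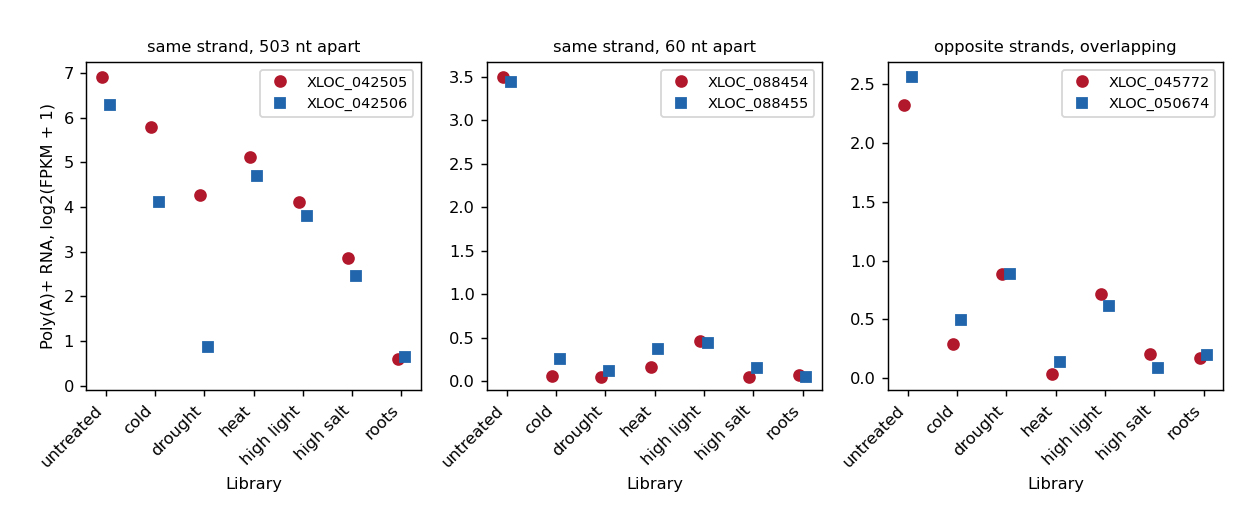
Poly(A)+ RNA as log2(FPKM + 1) of 3 pairs of neighbouring loci in each library. XLOC_042505 and XLOC_042506 are farthest apart in drought. The other pairs lie below 1 outside the untreated library, where this scale compresses differences.

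XLOC_071107 (chromosome 6, plus strand, 24396685 to 24397206) stood for the low loci with wide gaps. It had 3.02 FPKM untreated (117 reads), 2 reads in high light, 1 each in heat and roots, and none in cold, drought or high salt. Against a limit of 3 reads per library, the untreated value was at least 53.7-fold higher than in cold, 30.8-fold higher than in drought and 32.4-fold higher than in high salt. XLOC_010840 (chromosome 1, minus strand, 38819941 to 38822385) had 10.1 FPKM untreated, 1.82 in cold, 1.80 in high light, 1.63 in roots, 1.13 in heat, 0.113 in high salt and 0.0347 in drought. XLOC_012484 (chromosome 10, plus strand, 3899836 to 3900122) had 7.37 FPKM untreated and between 0.170 in high salt and 1.30 in cold elsewhere. These 3 loci had the next widest gaps below the pair on chromosome 8 and XLOC_092633, between 1.87 and 1.97.

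Loci with no read in any other poly(A)+ library of the rule were XLOC_036368 (1.56 FPKM, 34 reads), XLOC_068574 on chromosome 6 (1.09 FPKM untreated) and XLOC_036369 (1.03 FPKM, 21 reads). At such levels an absence elsewhere is limited by depth: 3 reads of XLOC_036369 are worth 0.106 FPKM in cold and 0.216 in high light. Just inside the threshold were XLOC_045920, XLOC_065001 and XLOC_082712, with gaps of 1.002, 1.012 and 1.018 and untreated values of 1.07, 1.35 and 5.39 FPKM. Just outside were XLOC_015345, XLOC_082810 and XLOC_009964, with gaps of 0.995, 0.997 and 0.999 and 3.72, 1.197 and 1.34 FPKM. A gap of at least 0.5 would have taken 188 loci and one of at least 1.5 only 16, so the threshold cuts a continuous range.

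In untreated seedlings all 49 loci were lower in poly(A)- and in nuclear RNA than in poly(A)+ RNA, with summed values of 10.8 and 11.5 FPKM against 738, and 46 were lower in small RNA. The same held for 1666, 1661 and 1631 of the 1667 other unspliced XLOC loci of at least 1 FPKM in untreated poly(A)+ RNA (99.94%, 99.6% and 97.8%), so the 49 shared it with most others. The poly(A)+ values had been used to choose them, and no test was made. The 3 exceptions in small RNA, XLOC_036368, XLOC_036369 and XLOC_079937, are described further on. Over the undisputed libraries, 8 of the 49 reached 1 FPKM in poly(A)- RNA, 8 in nuclear RNA and 7 in small RNA, and 5, 2 and 11 were listed at 0 in every such library. Of the other 2958 unspliced XLOC loci 24.7%, 19.9% and 7.61% reached 1 FPKM in these fractions (16.3%, 16.3% and 14.3% of the 49). At 0 in every library were 10.4%, 4.94% and 29.04% (10.2%, 4.08% and 22.4% of the 49). Of the 1667 loci of at least 1 FPKM in untreated poly(A)+ RNA, 35.9%, 27.4% and 3.60% reached 1 FPKM in these fractions. Among those 1667, 2.34%, 0.42% and 35.8% were at 0 in every library. Beside the 1667, the 49 thus reached 1 FPKM less often in poly(A)- and nuclear RNA and more often in small RNA. The authors put 48 of the 49 (97.96%) in their poly(A)+ class, against 68.7% of the other 2958 unspliced XLOC loci, and XLOC_074457 in their bimorphic class. They placed 34 (69.4%) in the cytosol, against 78.2% of the others, 7 in the nucleus, 5 in their bimorphic and 3 in their low expressed location class. Those classes may rest on the same libraries as the rule.

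**Figure D4:**
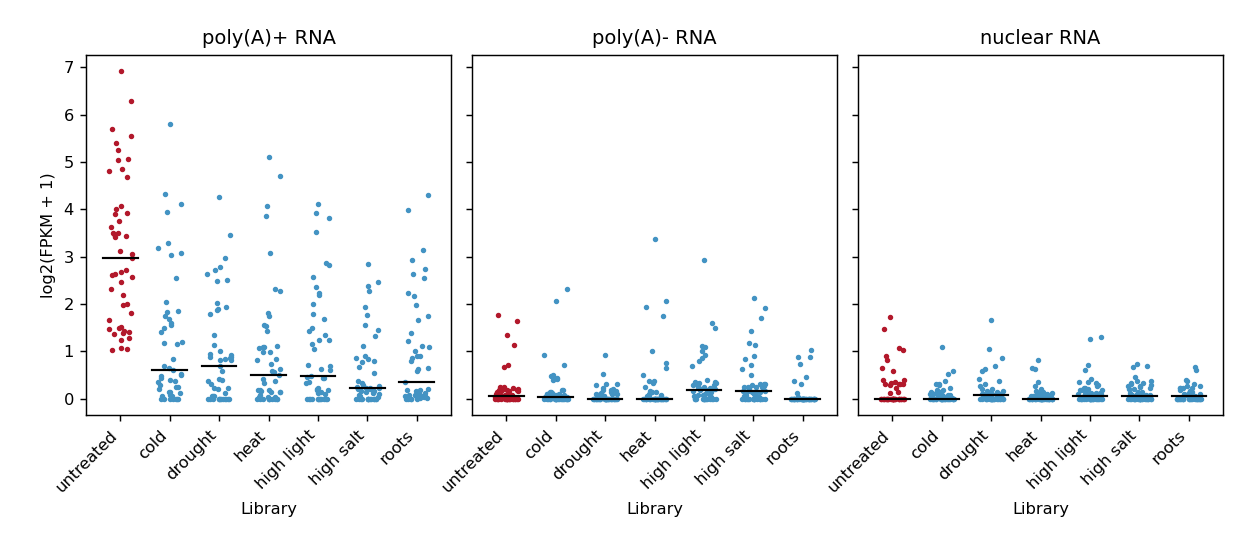
Values of the 49 loci as log2(FPKM + 1), with 1 panel each for poly(A)+, poly(A)- and nuclear RNA, in the untreated library (red) and the 5 stressed and the root libraries (blue), 1 point per locus, with the median as a bar. Few loci rise above 1 on this scale outside poly(A)+ RNA, and the untreated library is not the highest in poly(A)- RNA.

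In poly(A)- RNA, which the rule did not use in seedlings, the untreated library was not on top. Of the 8 loci that reached 1 FPKM in a seedling poly(A)- library, 0 were highest without stress, against 0.156% of the 1285 genes of both lists. Heat and high salt were highest for 3 loci each, and cold and high light for 1 each. The untreated poly(A)- library was low over all genes too: the median log2 difference of all genes tested from it was 0.80 in cold, 0.67 in heat, 0.96 in high light and 1.08 in high salt, and -0.11 in drought.

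XLOC_042505 had its poly(A)- RNA highest in heat, at 9.42 FPKM (115 reads, 95% interval 7.78 to 11.3), then 6.61 in high light, 3.37 in high salt, 3.18 in cold, 1.53 untreated (30 reads, 1.03 to 2.18) and 0.884 in drought. The heat and high light intervals did not overlap the untreated one. Its poly(A)+ RNA was lower there, with 33.5 FPKM in heat and 16.2 in high light against 120 untreated. The rule had fixed that direction, so the contrast between the fractions is a description. XLOC_042505 was at least 2-fold higher in heat and in high light, sizes that 25.2% and 44.9% of all genes passed. Relative to the library medians it kept the size in heat and lost it in high light. Here and below, shares of all genes are of those genes of both lists at 1 FPKM or more in either column compared.

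XLOC_053058 had 2.40 FPKM in untreated poly(A)- RNA (216 reads, 95% interval 2.09 to 2.75), 2.81 in heat, 0.781 in high salt, 0.266 in high light, 0.0743 in drought and 0.0682 in cold. The untreated and heat intervals overlapped, and the other 4 lay below them. By the size rule (2-fold, and at least 1 FPKM in either column, no test) it was lower in cold, drought and high light. Over all loci of the set, 1 of 4 with such a value was lower in cold (1.19% of all genes), 2 of 4 in drought (22.4%), 0 of 5 in heat (1.66%), 1 of 6 in high light (0.549%) and 0 of 7 in high salt (0.368%). The second locus lower in drought was XLOC_042506, with 46 reads untreated and none in drought, and in the other 4 stresses its poly(A)- RNA was between 1.80 FPKM in high light and 3.96 in cold. Higher poly(A)- RNA was found for 0 of 4 loci in cold (32.1% of all genes), 0 of 4 in drought (17.9%) and 0 of 7 in high salt (57%), beside XLOC_042505 in heat (1 of 5) and high light (1 of 6). Few loci could be compared, and XLOC_053058 accounts for 3 of the 4 differences to lower values.

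In nuclear RNA the untreated library was highest for 3 of the 5 loci at 1 FPKM in a seedling library, against 30.1% of 601 genes. XLOC_072341, the longest of the loci (5330 nt, chromosome 6, minus strand, 2274521 to 2279851), had 2.28 FPKM untreated (299 reads, 95% interval 2.03 to 2.56), 1.07 in drought, 0.754 in heat, 0.670 in high salt, 0.630 in high light and 0.214 in cold. The untreated interval was above all 5 stresses. XLOC_053058 had 1.76 FPKM untreated (48 reads, 1.29 to 2.33), 0.573 in heat, 0.489 in drought, 0.258 in high salt, 0.129 in high light and 0.0153 in cold, again with the untreated interval on top. XLOC_071107 had 1.09 FPKM untreated from 14 reads and at most 6 reads in a stressed nuclear library.

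The size rule found lower nuclear RNA for 3 of 5 loci in cold (10.3% of all genes), 1 of 5 in drought (8.5%), 2 of 4 in heat (14.7%), 2 of 5 in high light (5.9%) and 1 of 4 in high salt (7.63%). XLOC_053058 and XLOC_071107 were lower in 3 stresses each, XLOC_072341 in 2 and XLOC_042506 in 1. XLOC_042505 was 2-fold higher in drought (3.92% of all genes), at 2.15 FPKM (26 reads) against 0.502 untreated, the latter from 3 reads. No locus was higher in nuclear RNA in cold (1.75% of all genes), heat (15.6%), high light (2.04%) or high salt (2.4%). All genes together were lower in the stressed nuclear libraries by a median of 0.20 to 0.32 on the log2 scale, and relative to those medians 3 of the 9 differences kept their size: XLOC_053058 and XLOC_072341 in cold, and XLOC_053058 in high light.

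XLOC_036369 and XLOC_036368 are the first and the last of the 692 loci listed on chromosome 2 (54 to 329 on the minus strand, 35935957 to 35936250 on the plus strand), and XLOC_079937 is the last of 576 on chromosome 7 (29696920 to 29697617, plus strand). Their place at chromosome ends was noticed after their values were seen. All 3 were low in poly(A)+ RNA, at 1.03, 1.56 and 1.70 FPKM untreated, and high in small RNA. XLOC_036368 had 30.9 FPKM of small RNA untreated (359 reads, 95% interval 27.8 to 34.3), 25.1 in high salt, 21.4 in heat, 9.94 in leaves, 7.51 in high light, 7.20 in roots, 4.72 in cold, 4.25 in panicles and 3.94 in drought. XLOC_036369 had 26.7 FPKM untreated (291 reads, 23.7 to 29.9), 24.9 in high salt, 19.1 in heat, 13.9 in leaves, 8.16 in high light, 7.33 in drought, 6.73 in cold, 4.76 in roots and 4.04 in panicles. XLOC_079937 had 25.8 FPKM untreated (713 reads, 23.9 to 27.7), 22.3 in high salt, 20.6 in heat, 9.67 in leaves, 6.63 in high light, 6.02 in roots, 4.299 in drought, 4.29 in cold and 3.65 in panicles.

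The 3 loci shared an order in small RNA: untreated, high salt and heat on top, leaves next, and the other 5 libraries below 8.2 FPKM. In cold, XLOC_036368, XLOC_036369 and XLOC_079937 were 6.55, 3.97 and 6.01 times lower than untreated, in drought 7.84, 3.64 and 5.998 times, and in high light 4.11, 3.27 and 3.89 times. They were the 3 loci lower by the size rule in each of cold (3 of 5, 36.5% of all genes), drought (3 of 6, 36.8%) and high light (3 of 5, 1.47%), and none was lower in heat (0 of 5, 22.9%) or high salt (0 of 6, 5.18%). No locus of the set was higher in small RNA in cold (1.1% of all genes), drought (0.915%), heat (0.814%), high light (1.47%) or high salt (0.626%). The median log2 difference of all genes from untreated small RNA was -0.85 in cold, -0.87 in drought and -0.18 in high light. Relative to these medians all 3 kept the size in high light, and XLOC_036368 and XLOC_079937 kept it in cold and drought. On that scale XLOC_045920 was higher in drought, at 1.05 FPKM (26 reads) against 0.349 untreated (4 reads), as were 42 of the 1093 genes tested.

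Untreated small RNA was highest for 4 of the 7 loci at 1 FPKM in a seedling library, against 61.1% of 1250 genes. The other 4 loci that reached 1 FPKM in small RNA, XLOC_089246, XLOC_092633, XLOC_071107 and XLOC_045920, stayed at or below 1.22 FPKM. Among the 24 outermost listed loci of the 12 chromosomes, 6 had at least 1 FPKM of untreated small RNA, against 15.05% of the 7231 genes of both lists. At least 10 FPKM was reached by 4, the 3 chromosome-end loci and the annotated EPlOSAG00000008521 on chromosome 9 (1811 nt, 1009 FPKM). In untreated small RNA 52 genes of both lists had at least 20 FPKM, these 4 among them. Such levels were thus not confined to outermost loci. The 3 chromosome-end loci had prompted this look, so the counts are a description only. Whether reads that map to several chromosome ends were counted at each end is not stated, so the values of the 3 chromosome-end loci may not be independent.

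**Figure D5:**
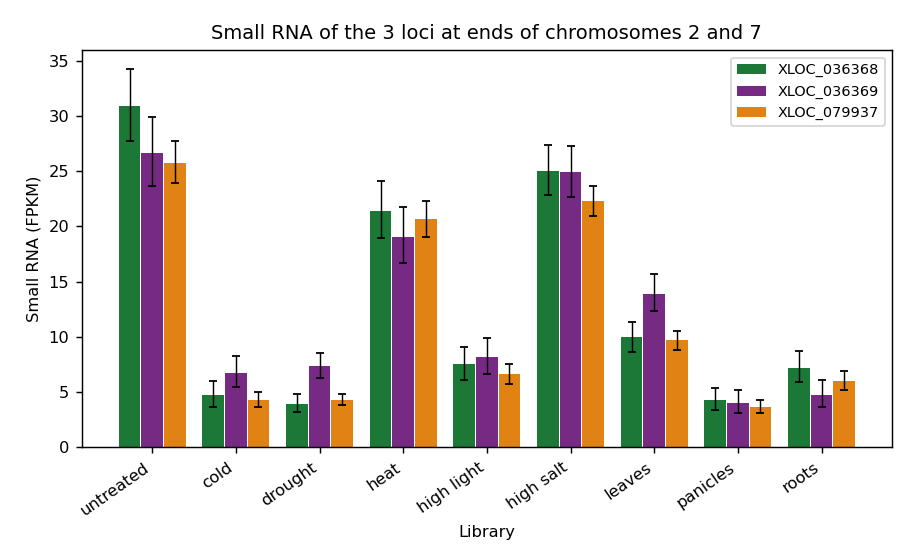
Small RNA FPKM of XLOC_036368, XLOC_036369 and XLOC_079937 in the 9 libraries, with exact 95% Poisson intervals for counting error as bars. The 3 loci are highest in untreated, high salt and heat seedlings and at or below 8.16 FPKM in cold, drought, high light, panicles and roots.

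Nuclear against poly(A)- RNA was the comparison with repeats that the rule did not touch, with 7 conditions as blocks (6 of seedlings, and leaves). Of 888 genes tested with limma, 157 (17.7%) were 2-fold apart with a Benjamini-Hochberg adjusted p below 0.05, 146 of them lower in nuclear RNA (16.4%) and 11 higher. Of the 49 loci 5 could be tested, the others falling short of 1 FPKM in 3 libraries. XLOC_042505 was lower in nuclear RNA, at 0.791 ± 0.796 FPKM against 3.57 ± 3.36 in poly(A)- RNA (SD, n = 7 conditions), a log2 difference of -1.10 ± 0.34 (SE, limma adjusted p = 0.00646), and lower in 5 of 7 conditions. This call rested on heat and high salt: without heat the difference was -0.75 (limma adjusted p = 0.114) and without high salt -0.97 (limma adjusted p = 0.0358, under 2-fold). With each library centred on its median, the difference was -0.71 (limma adjusted p = 0.0817) and the split over all genes was 43 higher and 84 lower.

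XLOC_042506 had a log2 difference of -0.74 ± 0.30 (SE, limma adjusted p = 0.0386) and XLOC_092633 one of -0.72 ± 0.25 (SE, limma adjusted p = 0.0178), both under 2-fold and both lower in 5 of 7 conditions. XLOC_092633 reached 1 FPKM in 4 poly(A)- libraries and 0 nuclear ones, XLOC_042506 in 5 and 2, and XLOC_053058 in 3 and 2. These 3 loci entered the test through poly(A)- RNA, so the filter favours a lower nuclear value for them, whereas XLOC_042505 had 3 nuclear libraries at 1 FPKM. XLOC_053058 gave -0.23 (limma adjusted p = 0.502) and XLOC_072341 gave 0.06 (limma adjusted p = 0.876). The median log2 difference over all genes tested was -0.45. Nothing in the labels says that the libraries came from separate cultures, so these p-values measure the spread between conditions, which may be partly technical.

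Untreated tissues gave further values outside the rule. In leaves, poly(A)- RNA was lower than in untreated seedlings for 3 of 4 loci (12% of all genes): XLOC_042505, XLOC_042506 and XLOC_092633 had 30, 46 and 32 reads in seedlings and none in leaves. Leaf nuclear RNA was lower for 1 of 7, XLOC_071107 (3.21% of all genes). It was higher for 2, XLOC_062224 at 1.57 against 0.211 FPKM and XLOC_082712 at 1.11 FPKM (32 reads) against 0 (38.5% of all genes). All genes tested were higher in leaf nuclear RNA by a median of 0.81 on the log2 scale. Relative to that median 0 loci were higher and 3 were lower, XLOC_042506, XLOC_071107 and XLOC_072341. Root nuclear RNA was lower for all 4 loci at 1 FPKM in either column, XLOC_042506, XLOC_053058, XLOC_071107 and XLOC_072341 (31.5% of all genes), and for none of them once the median of all genes was taken off. No locus was higher in leaf poly(A)- RNA (33.9% of all genes) or in root nuclear RNA (9.85%). Small RNA was lower for the chromosome-end loci XLOC_036368 and XLOC_079937 in leaves (2 of 5, 13.1% of all genes), and for all 3 chromosome-end loci in roots (3 of 5, 23.2%) and panicles (3 of 5, 50.8%). None was higher in small RNA of leaves (1.44%), roots (1.16%) or panicles (2.39%). The title of the leaf small RNA library names seedlings, so that leaf comparison is uncertain.

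Poly(A)+ RNA of leaves and panicles stood under disputed headings. As headed in the XLOC list, leaves had a median of 0 FPKM over the 49 loci and 48 loci were 2-fold below untreated seedlings. Under the headings of the annotated list, the leaf column had a median of 1.48 FPKM, 36 loci were 2-fold below, and XLOC_062224 (32.9 FPKM), XLOC_010840 (13.6 FPKM) and XLOC_033203 (3.99 FPKM) were above their untreated values. For panicles the count 2-fold below was 36 under the XLOC headings and 35 under the annotated ones. Under the annotated headings XLOC_017321 reached 62.1 FPKM, XLOC_074457 49.3, XLOC_010840 25.9 and XLOC_082712 5.89 in panicles, above 41.1, 2.94, 10.1 and 5.39 in untreated seedlings. The leaf column of the annotated headings is the panicle column of the XLOC headings, so under either reading XLOC_062224, XLOC_010840 and XLOC_033203 had a tissue value above the untreated one. Over the other 2958 unspliced XLOC loci, 6.86% reached 1 FPKM in poly(A)+ RNA of leaves as headed in the XLOC list. The undisputed poly(A)+ columns had 30.1% (high salt) to 57.9% (heat). Nuclear RNA of panicles as headed there had 75.7%, against 2.60% (roots) to 14.8% (leaves) in undisputed nuclear columns. By these shares both columns lie nearer to their annotated headings, poly(A)- and poly(A)+ RNA of panicles. Which headings are right was not tested.

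The 49 loci were short, with a median of 346 nt (quartiles 272 and 521), beside 537 nt (348 and 837) for the other unspliced XLOC loci. The shortest was XLOC_074457 with 201 nt, and 20 were under 300 nt. They lay on all 12 chromosomes, from 2 on chromosomes 1 and 12 to 7 on chromosome 6, with 25 on the plus and 24 on the minus strand. The nearest listed locus was a median of 13194 nt away, beside 10842 nt for the others, and 9 loci (18.4%, beside 20.01%) had one within 1 kb. The nearest annotated long noncoding RNA was a median of 55945 nt away, beside 45928 nt, and none of the 49 had one within 1 kb, beside 45 of the others (1.52%). The closest annotated locus lay 2216 nt from XLOC_082712. Distances to protein-coding genes were not analysed here.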

How the data were processed

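The authors deposited FPKM values per transcript in 2 lists, per the file headers, with 36 columns each. TopHat2, DESeq2 and IRGSP-1.0 stand in the submitters' processing notes, without roles, and the sources used here give no read counter. Multiplied by exon length, the FPKM values of a column were whole multiples of 1 step for 99499 of 99516 values of up to 200 reads (99.98%, within 0.05 reads), which gave reads and depth. A limit of 3 reads stands for a count of 0. Stress and tissue columns were compared by size without a test: a locus needed 1 FPKM in either column and a 2-fold difference on the log2(FPKM + 1) scale. Nuclear and poly(A)- RNA were compared on the same scale with limma 3.58.1 (R 4.3.3), with a trended prior, conditions as blocks and all genes that reached 1 FPKM in 3 or more libraries, and the code was tested on simulated data. Differences of loci near 1 FPKM come out smaller on that scale than as plain ratios. Roots were left out there because the rule used root poly(A)- RNA. The prior had infinite degrees of freedom beside 6 residual ones, so p-values lean on a spread pooled over genes. Loci were named by rank in level per fraction, gap, limma difference, distance, length and nearness to the threshold. The set, these ranks and the alternatives were chosen with earlier results of these data known. No sequence of this build was used here.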

Additional observations from a re-analysis of the deposited data

How the results depend on the processing

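The number of loci under the rule was 139 with a pseudocount of 0.1, 3 with a 4-fold threshold and 17 relative to the median difference of all genes, and 49 to 98 with each other library left out (75 without cold, 76 without heat, 98 without roots). Pairs of a locus and a stress lower in poly(A)- RNA numbered 4, but 0 at 4-fold and 7 relative to the median. In nuclear RNA they numbered 9, but 17 with a pseudocount of 0.1, 0 at 4-fold and 3 relative to the median. In small RNA they numbered 9, but 4 at 4-fold. The limma count of 157 was 263 with a pseudocount of 0.1 and between 122 and 225 with each condition left out. With no filter limma called 0 of 5382 genes, although 890 had an unadjusted p under 0.05, and 164 of those were also 2-fold apart; why was not tested. XLOC_042505 also lost its call with no filter (limma adjusted p = 0.237) and with roots added (-0.95, limma adjusted p = 0.0109). XLOC_042506 passed without drought (-1.01, limma adjusted p = 0.00744). The log2 difference of XLOC_053058 turned to 0.16 when libraries were centred. That of XLOC_072341 rose to 0.45 when libraries were centred (limma adjusted p = 0.0231, under 2-fold). With single conditions left out, the difference of XLOC_072341 ran from -0.10 (without untreated seedlings) to 0.19 (without high salt) and was -0.01 without drought. None of these values passed the threshold. The columns carry no replicate numbers, so the limma fit was paired by condition; with no replicate block it called 150. Few loci reached 1 FPKM outside poly(A)+ RNA, so those counts rest on few loci, and reads were fewest per FPKM in untreated nuclear RNA.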
